A study of Mus musculus with 25 samples.

Results

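The macrophages compared here came from the spinal cord of mice 1 day (D1) and 10 days (D10) after a spinal cord injury. They were the cells with the authors' cell type code 2 in the libraries sorted as infiltrating or mixed that held at least 20 such cells. The deposited codes carry no names, and code 2 was called macrophages and code 1 microglia here from their marker genes. That gave 4022 of the 12841 macrophages among the 30958 cells of the series, in 4 libraries at D1 (3236 cells) and 4 at D10 (786 cells). All 25 libraries of the series were made from 5 mm of lesion tissue of 1 to 3 mice each, by droplet-based 3′ RNA sequencing of sorted myeloid cells, with laminectomy alone as control. Infiltrating libraries held RFP-/YFP+ cells of Cx3cr1CreERT2:R26tdTomato mice, in which a tamoxifen-inducible Cre driven from the Cx3cr1 gene switches on a red fluorescent protein. Mixed libraries held all YFP+ cells of Cx3cr1CreERT2 mice, which lack that reporter, so that sort and strain were split the same way. At each of D1 and D10 there were 1 female and 1 male infiltrating library and 2 male mixed libraries. The mixed library D1_mixed 2 held 12 macrophages and fell outside the rule, while D1_mixed 1, with 28, was the smallest inside it. No age was used here, and the labels name no individual animals, so p-values measure the spread between these libraries.

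After injury to the spinal cord, circulating monocytes enter the lesion through its damaged vessels and become macrophages. There they clear red cells, myelin and dead cells, and take up iron and lipid as they do so. Early macrophages of a wound are known for chemokines that attract further leukocytes and for a metabolism based on glycolysis, while later ones are known for lipid export and complement genes.

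The D1 and D10 macrophages differed in the deposited clusters that they came from, and the D10 mixed libraries held a small group of cells that carried much of their RNA. At D1 most macrophages of the infiltrating libraries lay in clusters 8, 11 and 12, whereas cluster 9 held 432 of the 549 macrophages (78.7%) of D10_infiltrating 1 and 24.1%, 18.9% and 14.7% of those of D10_infiltrating 2, D10_mixed 1 and D10_mixed 2, in which cluster 3 was larger. The macrophages of cluster 9 at D10 had the macrophage gene Ms4a7 at 1628 to 1897 CPM (the counts of a gene divided by all UMIs of the cells summed, here those of the cluster and elsewhere those of the library's macrophages, and scaled to a common total) and Apoe at 103691 to 125659 CPM in the 4 libraries. Cluster 3, in which 3312 of 3660 cells carry the microglia code, supplied 60 of 549, 67 of 116, 21 of 53 and 30 of 68 macrophages at D10 and 5 in all at D1. These cells had few UMIs, with a median of 1763 to 3173.5, and their 10 microglia markers summed to 886 to 1852 CPM, against 1008 to 2164 CPM in cluster 9 and 7824 and 7608 CPM in the microglia of the D10 mixed libraries. Cluster 2, in which 1801 of 1924 cells carry the microglia code, supplied 9 of 28 and 15 of 54 macrophages of the D1 mixed libraries, with microglia markers at 1355 and 1599.6 CPM. At D10 it supplied 3, all in D10_infiltrating 2.

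Cluster 10 made up 8 of 53 and 12 of 68 macrophages in the D10 mixed libraries but 53.0% and 55.9% of their summed UMIs. Its cells had a median of 40373.5 and 35956 UMIs, against 7749.5 and 12106.5 in cluster 9 of the same libraries. They were led by Prtn3, Mpo, Elane and Ctsg, which encode granule proteins of myeloid precursors, and by the division gene Top2a. In D10_mixed 1 they also had Ly6d and Dntt, known from lymphoid precursors, at 703 and 261 CPM, and both were at 0 in D10_mixed 2. Apoe and Ms4a7 were at 0 in them, and the macrophage markers summed to 971 and 1010.04 CPM, against 5739 and 4730.1 CPM in cluster 9. The macrophage code thus took in cells here that lacked 2 of its leading genes, and their identity was not tested. In the D10 infiltrating libraries cluster 10 held 3 and 2 cells, with 1.5% and 7.76% of the UMIs, and Mpo and Elane at 0. At D1 it held 5 cells of D1_infiltrating 1, with Mpo, Elane and Prtn3 at 2085, 1179.7 and 1442 CPM, Apoe at 3503 CPM and Ms4a7 at 47.7 CPM. Doublets were not called. The counts of called genes are therefore also given for the macrophages outside clusters 2, 3 and 10, called the remaining macrophages, a choice made after these values were seen. Those sums held 24 and 26 cells in the D10 mixed libraries, and D1_mixed 1 dropped out with 19, which left 3 libraries at D1 and 4 at D10. They still held cluster 14, to which 13 of the 54 macrophages of D1_mixed 3 belonged, with 24.4% of the UMIs of all its macrophages. In these 13 cells the microglia markers summed to 989 CPM, the monocyte markers to 9.99 CPM, and Ms4a7 was at 0.

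**Figure D1:**
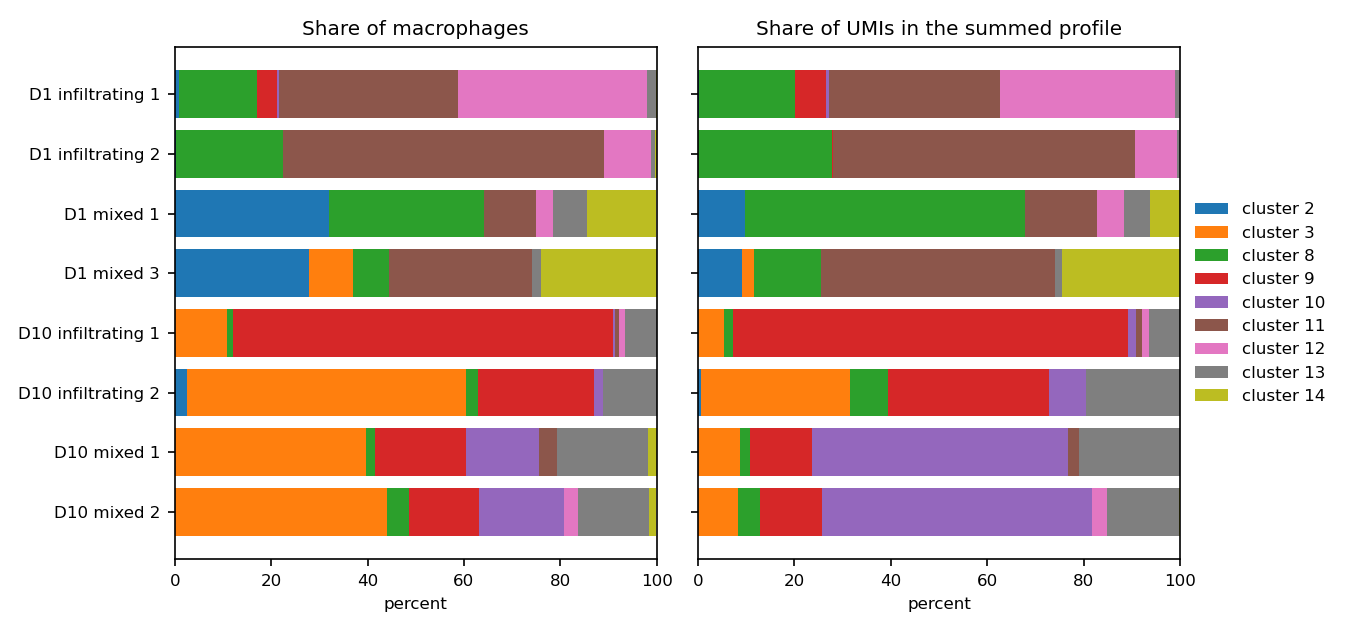
Share in percent of the macrophages (left) and of their summed UMIs (right) in each deposited cluster, 1 bar per library and 1 colour per cluster, for the 4 D1 and 4 D10 libraries. Cluster 10 takes 15.1% and 17.6% of the macrophages but 53.0% and 55.9% of the UMIs of the D10 mixed libraries.

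Between D1 and D10, 577 genes rose and 570 fell among the 8577 tested, at an adjusted p of at most 0.05 by edgeR's quasi-likelihood test on counts summed per library. That is 13.4% of the genes tested, 6.73% higher and 6.65% lower, and the median change over all genes was 0.01 on the log2 scale. The CPM ranges of the 4 D1 and the 4 D10 libraries did not overlap for 1870 genes (21.8%). In the remaining macrophages 313 genes rose (2.66%) and 510 fell (4.34%), together 7.01% of 11745 tested. Of the 554 rises that could be tested there, 216 passed again, and of the 570 falls, 374 did. Of all 1124, 1114 kept their direction. No sequencing pool held libraries of both days, so day and pool cannot be told apart, and neither can a change per cell and a change in the mix of clusters from the sums alone. Leaving out D1_infiltrating 2 brought the calls down to 329 (113 higher and 216 lower), and leaving out D10_mixed 1 or D10_mixed 2 to 592 and 631. Of 86 called genes chosen by rule for naming, 36 kept their call in all 15 fits that left out 1 library.

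**Figure D2:**
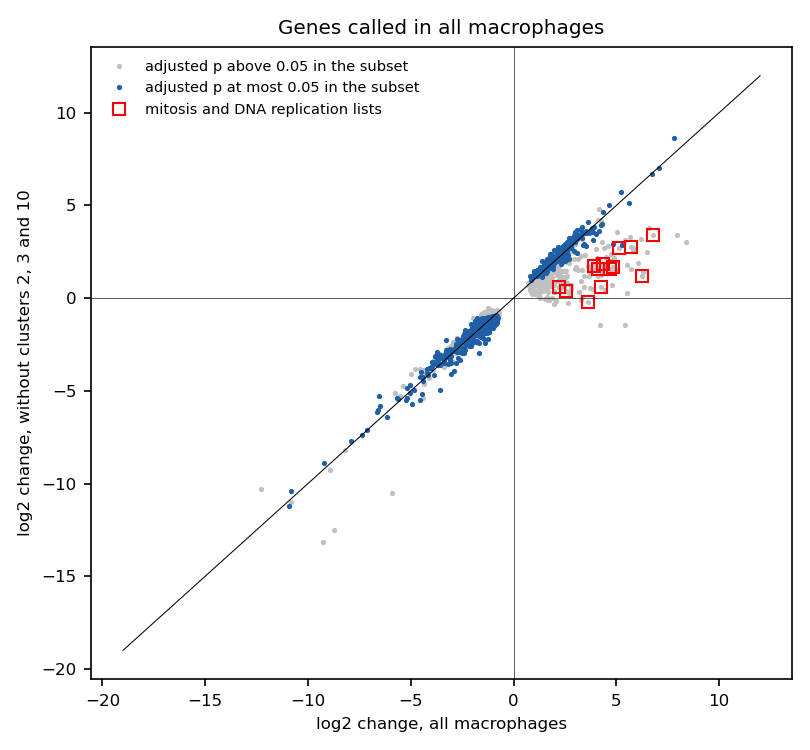
Fitted log2 change from D1 to D10 of the called genes in all macrophages (horizontal) and in the macrophages outside clusters 2, 3 and 10 (vertical), 1 point per gene. Members of the mitosis and DNA replication lists (red squares) lie toward 0 on the vertical axis, while 1114 of 1124 genes keep their direction.

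Most CC chemokines and some CXC chemokines, 2 families of secreted proteins that attract leukocytes, fell at D10, and fewer passed in the remaining macrophages. Of 10 tested CC chemokines, 8 fell and none rose, with a median log2 change of -4.44, and their summed level was 6950 to 26500 CPM at D1 and 411 to 589 CPM at D10. Ccl2, the main attractant of monocytes that carry Ccr2, was at 3542, 7769.97, 1996 and 6833 CPM at D1 and 44.4, 59.5, 9.76 and 19.97 CPM at D10, the libraries being given here and below in the order infiltrating 1 and 2, mixed 1 and 3 at D1, and infiltrating 1 and 2, mixed 1 and 2 at D10. All 4 D1 libraries lay far above all 4 D10 libraries, and Ccl2 fell by 7.12 on the log2 scale (SE 0.80, n = 4 and 4, adjusted p = 0.000349). Its neighbour Ccl7, a second ligand of Ccr2, was at 1457, 3635, 1377 and 2296 CPM at D1 and 8.18, 0, 0 and 0 CPM at D10. Only D10_infiltrating 1 held any Ccl7 at D10, and the log2 change was -9.23 ± 0.92 (SE, n = 4 and 4, adjusted p = 0.000199). Fits that each left out 1 library gave -16.87 to -8.86, so the size of this fall is uncertain. Ccl2 (chr11:82035571-82037453), Ccl7 (chr11:82045712-82047525) and Ccl12 (chr11:82101845-82103400) lie in 1 cluster on the plus strand of GRCm38 chromosome 11, and Ccl12 fell too (-4.33, adjusted p = 0.0027).

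Ccl6 and Ccl9, chemokines of mice that act through Ccr1, changed by -3.88 and -4.11 (adjusted p = 0.0133 and 0.034). Ccl3 and Ccl4, which attract several kinds of leukocytes, changed by -4.55 and -4.99 (adjusted p = 0.0347 and 0.0219), and Ccl3 overlapped between the days. Ccl24, an attractant of eosinophils, was at 30.2, 326, 38.1 and 21.9 CPM at D1 and 0, 0, 0 and 1.11 CPM at D10. The D10 libraries held 1 Ccl24 count against 5698 at D1, a ratio of pooled CPM of 1103 (exact interval of the counts, 197.9 to 43580; adjusted p = 0.0398). D1_infiltrating 2 held 5223 of these counts, and without it the ratio was 185.3 (33.09 to 7333). Of 7 tested CXC chemokines, 3 fell. Cxcl2, which attracts neutrophils, was at 166, 983, 84.7 and 4225 CPM at D1 and 1.24, 0, 0 and 1.11 CPM at D10, with D1_mixed 3 highest. Its log2 change was -12.27 ± 3.31 (SE, n = 4 and 4, adjusted p = 0.037). Pf4, known from platelets and also from macrophages, changed by -6.15 ± 1.04 (SE, n = 4 and 4, adjusted p = 0.00466), and the interferon-induced Cxcl10 by -4.80 ± 1.21 (SE, n = 4 and 4, adjusted p = 0.0277). Cxcl3 had 45292 counts at D1 and 0 at D10, at least 2923-fold lower against a floor of 3 counts over the D10 libraries, yet its adjusted p was 0.0631. D1 values of Cxcl3 ran from 103 to 8653 CPM, and without D1_infiltrating 2 the bound was 669.1-fold.

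In the remaining macrophages 2 of 10 CC chemokines and 1 of 9 CXC chemokines passed the test. Ccl2 and Ccl7 were called there at -7.13 (adjusted p = 0.000128) and -8.92 (adjusted p = 8.42e-05), Pf4 at -6.41 (adjusted p = 0.00571). Cxcl2 had -10.28 (adjusted p = 0.0681), Ccl24 -13.16 (adjusted p = 0.21) and Ccl6 -3.31 (adjusted p = 0.0741), each lower at D10 without a call. Ccl2, Ccl7 and Pf4 kept their calls in all 15 fits that each left out 1 library. Ccl24, Cxcl2 and Cxcl10 lost their calls in 7, 7 and 5 of those 15 fits, respectively, with an adjusted p of up to 0.156 (without D10_mixed 2), 0.106 (without D10_mixed 1) and 0.0877 (without D10_mixed 2). Among the chemokine receptors, Ccr1 and Ccr2 did not pass. Ccr1, the receptor of Ccl6 and Ccl9, had -3.20 (adjusted p = 0.0583), and Ccr2 -0.03 (adjusted p = 0.991), with 311, 424, 415 and 70.5 CPM at D1 and 80.3, 342, 495 and 475 CPM at D10.

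**Figure D3:**
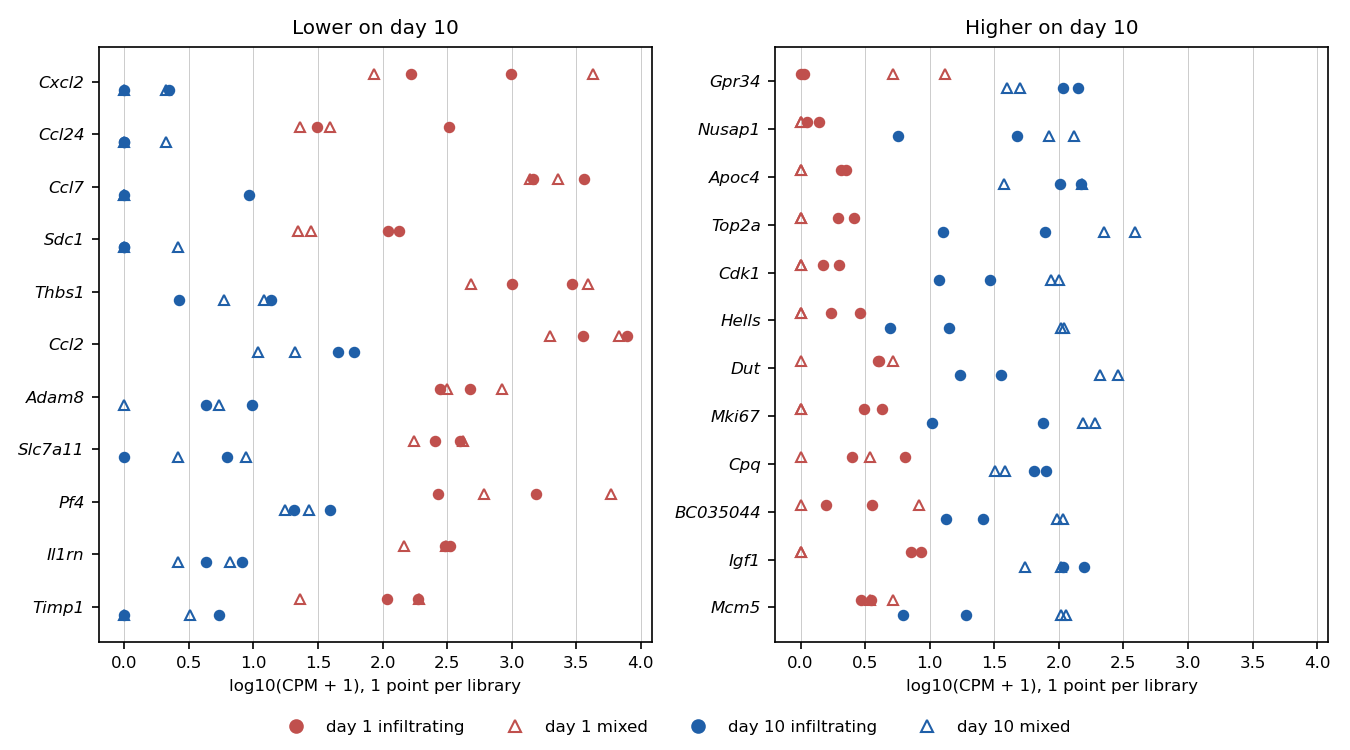
Level of 23 genes with the largest called falls and rises whose ranges did not overlap, as log10 of CPM plus 1, in the 4 D1 (red) and 4 D10 (blue) libraries. Filled circles are infiltrating and open triangles mixed libraries, and Ccl2 runs from 1996 to 7769.97 CPM at D1 and from 9.76 to 59.5 CPM at D10.

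Some receptors and other genes used as signs of alternative activation, the state that interleukin 4 induces, fell as well. Of 10 tested members of that list, 5 fell and none rose, with a median of -2.28. The scavenger receptor Msr1 had 248, 429.7, 258 and 579 CPM at D1 and 33.5, 38.03, 21.2 and 32.2 CPM at D10, without overlap, and changed by -3.56 ± 0.44 (SE, n = 4 and 4, adjusted p = 0.000349). Socs3, an inhibitor of cytokine signalling, had -3.28 (adjusted p = 0.00242), the receptor chain Il4ra -2.07 (0.00159) and the mannose receptor Mrc1 -3.03 (0.00617). Chil3, a lectin of the same list, was lower without a call (-2.50, 0.0836). The remaining macrophages gave 4 of 10 falls, with Msr1 at -3.08 (adjusted p = 0.000449) and Mrc1 at -2.59 (adjusted p = 0.085). Msr1, Socs3 and Mrc1 kept their calls in all 15 fits that each left out 1 library.

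Some genes of the wound matrix, coagulation and plasmin systems also fell. Of 11 tested genes of coagulation and provisional matrix, 4 fell and none rose (4 of 12 fell in the remaining macrophages). Thbs1, a matrix protein that activates latent TGF-beta, was at 999, 2951, 483 and 3907 CPM at D1 and 12.6, 1.65, 4.88 and 11.1 CPM at D10 and changed by -7.92 ± 1.09 (SE, n = 4 and 4, adjusted p = 0.00178). Its lowest D1 library, D1_mixed 1, was still far above all D10 libraries. The clotting factors F10 and F7 changed by -3.58 and -3.38 (adjusted p = 0.0104 and 0.00488), and fibronectin, Fn1, by -3.19 (0.0142). Among 13 tested proteases and their inhibitors or receptors, 4 fell (3 of 16 in the remaining macrophages). Adam8, a membrane protease of leukocytes, was at 277, 475, 314 and 842 CPM at D1 and 8.67, 3.31, 0 and 4.44 CPM at D10 and changed by -6.63 ± 0.65 (SE, n = 4 and 4, adjusted p = 0.000101). Timp1, an inhibitor of matrix proteases, was at 188, 107, 191 and 21.9 CPM at D1 and 4.46, 0, 0 and 2.22 CPM at D10, D1_mixed 3 being lowest at D1, and changed by -5.62 ± 1.01 (SE, n = 4 and 4, adjusted p = 0.00726). Plaur, the urokinase receptor, and Mmp19 changed by -2.74 and -4.27 (adjusted p = 0.00272 and 0.0179). Sdc1, a heparan sulfate proteoglycan, had 3774 counts at D1 and 1 at D10 (ratio of pooled CPM 730.6, exact interval 131 to 28860, adjusted p = 0.00865). The remaining macrophages had -7.69 (adjusted p = 0.00273) for Thbs1, -6.15 (adjusted p = 3.6e-05) for Adam8, -5.42 (adjusted p = 0.0392) for Timp1 and -12.52 (adjusted p = 0.107) for Sdc1. Fn1 lost its call there, with -2.69 (adjusted p = 0.129), and F13a1, a clotting factor, was called, with -1.86 (adjusted p = 0.0177). Thbs1, Adam8, Timp1, Sdc1, F10 and F7 kept their calls in all 15 fits that each left out 1 library. Mmp19 and Fn1 lost their calls in 3 and 1 of those 15 fits, respectively, with an adjusted p of up to 0.0664 and 0.0519 (without D1_infiltrating 2).

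Of 13 tested interleukins and Tnf family genes, 4 fell (2 of 15 in the remaining macrophages). Il1rn, the antagonist of the interleukin 1 receptor, was at 331, 301, 309 and 146 CPM at D1 and 7.19, 3.31, 1.63 and 5.55 CPM at D10 and changed by -5.78 ± 1.03 (SE, n = 4 and 4, adjusted p = 0.00638). D1_mixed 3 stood below the other D1 libraries, and no D10 library reached it. Osm, an interleukin 6 type cytokine, changed by -3.68 (adjusted p = 0.019), and Tnfsf9 by -2.06 (0.0317). Il1r2, the decoy receptor of interleukin 1, had 1245 counts at D1 and 1 at D10 (ratio 241.0, exact interval 43.18 to 9527, adjusted p = 0.0292). Il1b itself, at 252, 243, 250.001 and 114 CPM at D1 and 29.98, 14.9, 53.7 and 11.1 CPM at D10, did not overlap between days but missed the threshold, with -3.00 ± 1.24 (SE, n = 4 and 4, adjusted p = 0.132). Tnf missed it too, with -1.63 ± 0.54 (SE, n = 4 and 4, adjusted p = 0.0597). Il1rn in the remaining macrophages had -5.14 (adjusted p = 0.0566). Il1rn kept its call in all 15 fits that each left out 1 library. Osm and Il1r2 lost their calls in 3 and 6 of those 15 fits, respectively, with an adjusted p of up to 0.0629 (without D1_infiltrating 2) and 0.0997 (without D10_mixed 1).

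The enzymes and transporters of glycolysis fell almost as a block. Of 17 tested, 13 fell and none rose, with a median log2 change of -1.53 against 0.01 over all genes, and their sum was 8850 to 19100 CPM at D1 and 2970 to 6750 CPM at D10. In the remaining macrophages 15 of 18 fell. The lactate exporter Slc16a3 and the glucose transporter Slc2a1 changed most, and 250 bases before the start of each gene (RefSeq, GRCm38.p6, 5′ to 3′ on the gene's strand) are printed to show the ACGTG core of the hypoxia response element next to their values. Capitals mark ACGTG on either strand, including where it is part of CACGTG. The windows are chr11:120948817-120949066, plus strand, and chr4:119108495-119108744, plus strand.
Slc16a3: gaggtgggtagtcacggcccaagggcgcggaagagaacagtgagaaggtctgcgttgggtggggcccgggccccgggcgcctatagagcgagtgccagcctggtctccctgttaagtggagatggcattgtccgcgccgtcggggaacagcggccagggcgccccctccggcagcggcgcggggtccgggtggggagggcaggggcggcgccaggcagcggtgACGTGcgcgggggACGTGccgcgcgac
Slc2a1: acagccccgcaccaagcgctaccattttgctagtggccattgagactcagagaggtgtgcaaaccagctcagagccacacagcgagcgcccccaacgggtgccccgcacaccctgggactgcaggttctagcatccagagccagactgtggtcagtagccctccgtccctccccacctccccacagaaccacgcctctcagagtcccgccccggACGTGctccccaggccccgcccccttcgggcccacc
ACGTG stood in such a window for 10 of 17 glycolysis genes and 9 of 13 hypoxia response genes found in the table, against 18.5% of its 27025 genes. A match describes the letters and shows no binding.

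Slc16a3 was at 166, 201, 110.2 and 397 CPM at D1 and 32.7, 39.7, 40.7 and 17.7 CPM at D10 and changed by -2.69 ± 0.45 (SE, n = 4 and 4, adjusted p = 0.00271). Slc2a1 was at 99.96, 133, 84.7 and 163 CPM at D1 and 18.8, 19.8, 24.4 and 19.97 CPM at D10 and changed by -2.55 ± 0.47 (SE, n = 4 and 4, adjusted p = 0.00452). For both, the 4 D10 libraries lay below the 4 D1 libraries. The last step before pyruvate, Pkm, changed by -2.04 ± 0.36 (SE, n = 4 and 4, adjusted p = 0.00334), and Ldha, which turns pyruvate into lactate, by -1.53 ± 0.32 (SE, n = 4 and 4, adjusted p = 0.00869). Pfkfb3, whose product drives phosphofructokinase, changed by -2.09 (adjusted p = 0.0249) with overlapping ranges. Hk2, Gpi1, Pfkp and Gapdh did not pass, with 0.51, -0.05, -0.97 and -1.07. Of 14 tested genes of the hypoxia response, 4 fell and none rose (6 of 16 in the remaining macrophages). Hif1a, the oxygen-regulated factor of that response, was at 367, 612, 381 and 440.3 CPM at D1 and 90.2, 121, 82.98 and 82.1 CPM at D10 and changed by -2.22 ± 0.42 (SE, n = 4 and 4, adjusted p = 0.00462). Vegfa, an angiogenic growth factor, changed by -4.01 ± 1.01 (SE, n = 4 and 4, adjusted p = 0.025) and had -3.85 (adjusted p = 0.0707) in the remaining macrophages, while Bnip3 changed by -2.49 (adjusted p = 0.0289). Slc16a3, Slc2a1 and Hif1a kept their calls in all 15 fits that each left out 1 library. Pfkfb3, Vegfa and Bnip3 lost their calls in 4, 4 and 5 of those 15 fits, respectively, with an adjusted p of up to 0.0701 (without D10_mixed 1), 0.0783 (without D10_mixed 2) and 0.0824 (without D10_mixed 2).

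**Figure D4:**
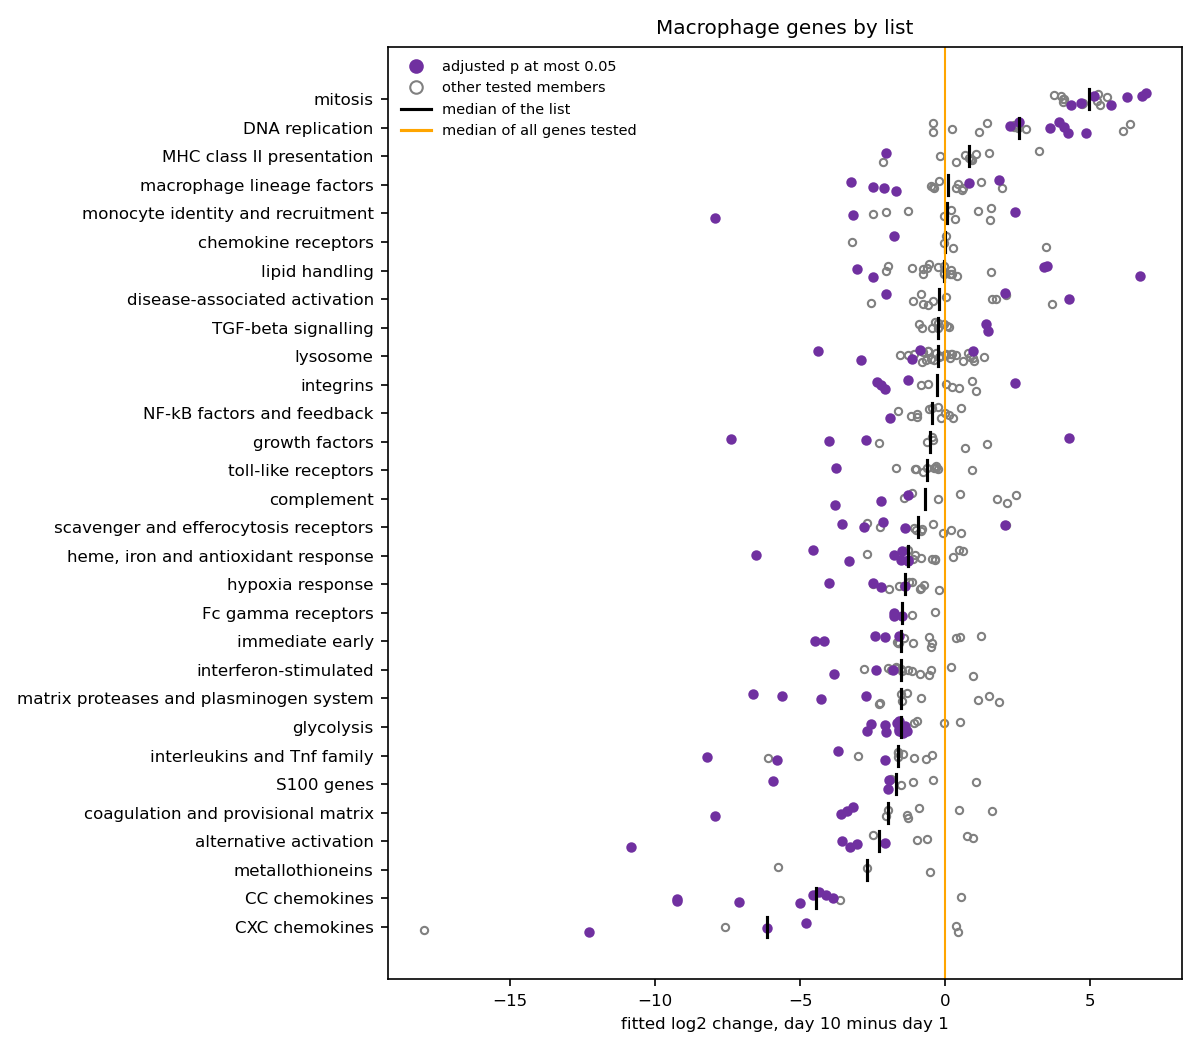
Fitted log2 change from D1 to D10 of every tested member of 30 gene lists, 1 point per gene, purple where called; black bars are list medians and the orange line is the median of all genes, 0.01. Glycolysis lies almost wholly below 0, with 13 of 17 members called lower.

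Genes for heme breakdown and the antioxidant response formed another group with falls alone, 8 of 19 tested (7 of 22 fell in the remaining macrophages and 1 gene rose there), with a median of -1.26. Hmox1, the heme oxygenase that opens the heme ring (chr8:75093621-75100589), was at 3053, 3792, 1686 and 2868 CPM at D1 and 132, 129, 129 and 94.3 CPM at D10. All D10 values were far below those of D1, D10_mixed 2 being lowest, and the change was -4.54 ± 0.44 (SE, n = 4 and 4, adjusted p = 5.43e-05). The cystine importer Slc7a11 was at 255, 394, 174 and 421 CPM at D1 and 5.204, 0, 1.63 and 7.76 CPM at D10 and changed by -6.52 ± 1.30 (SE, n = 4 and 4, adjusted p = 0.0106). Srxn1 and Txnrd1, which regenerate oxidised proteins of the peroxiredoxin and thioredoxin systems, changed by -3.30 and -1.48 (adjusted p = 0.0223 and 0.0312), and the ferritin heavy chain Fth1 by -1.77 (0.025). Blvra and Blvrb, the biliverdin reductases of the next step, had -0.44 and -0.34 without a call. Remaining macrophages gave -4.28 (adjusted p = 8.42e-05) for Hmox1 and -5.79 (adjusted p = 0.024) for Slc7a11. Hmox1 and Slc7a11 kept their calls in all 15 fits that each left out 1 library. Srxn1 lost its call in 4 of those 15 fits, with an adjusted p of up to 0.0673 (without D10_mixed 2).

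The apolipoprotein genes Apoe, Apoc1 and Apoc4 rose, and Apoc2 beside them was not abundant enough to test. Apoe, the apolipoprotein that carries exported cholesterol, was at 4190.01, 7221, 4246 and 3619.7 CPM at D1 and 111997, 71968, 25017 and 26085 CPM at D10. The lowest D10 library lay above the highest D1 library, and the infiltrating D10 libraries were above the mixed ones. Apoe rose by 3.52 ± 0.67 (SE, n = 4 and 4, adjusted p = 0.00597). Its neighbours Apoc1 and Apoc4, small apolipoproteins of the same gene cluster, were at 14.01, 10.9, 4.24 and 2.43 CPM at D1 and 100.1, 67.8, 117 and 94.3 CPM at D10, and at 1.26, 1.06, 0 and 0 CPM at D1 and 149, 101, 151 and 36.6 CPM at D10, respectively. Neither overlapped between days, and they rose by 3.39 ± 0.75 (SE, n = 4 and 4, adjusted p = 0.0142) and 6.73 ± 0.94 (SE, n = 4 and 4, adjusted p = 0.0018). Apoe (chr7:19696109-19699188), Apoc1 (chr7:19689481-19692660) and Apoc4 (chr7:19678083-19681479) lie in 1 cluster on the minus strand of chromosome 7. In the remaining macrophages the changes were 3.63 (adjusted p = 0.00584) for Apoe, 2.87 (adjusted p = 0.0166) for Apoc1 and 6.68 (adjusted p = 0.00797) for Apoc4. Apoe, Apoc1 and Apoc4 kept their calls in all 15 fits that each left out 1 library.

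The Apoe level differed between the clusters of a library. In cluster 9 it was 125659, 103691, 114775 and 112902 CPM in the 4 D10 libraries, in cluster 13 it was 521, 265, 1277 and 3957 CPM, and in cluster 10 it was 0 in all 4. The 52 macrophages of cluster 9 in D1_infiltrating 1 had 9277 CPM. The microglia of the D10 libraries also carried Apoe, at 42455 to 61033 CPM. These are levels of clusters made from the same counts and were not tested. Lipid handling as a whole did not move one way, with 3 rises and 2 falls among 21 tested and a median of -0.05 (in the remaining macrophages 3 rises and 2 falls among 22). Plin2, which coats lipid droplets, was at 874, 1403, 771 and 2228 CPM at D1 and 208, 185, 133 and 104 CPM at D10 and fell by 3.03 on the log2 scale (SE 0.39, adjusted p = 0.000445), and the sterol sensor Nr1h3 changed by -2.47 (0.0114). The sterol exporters Abca1 and Abcg1 had 0.25 and -0.05 without a call. Fabp5 and Fabp4, carriers of fatty acids, had -1.13 ± 0.82 (SE, n = 4 and 4, adjusted p = 0.387) and -0.76 ± 0.92 (SE, n = 4 and 4, adjusted p = 0.625).

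Of 10 tested complement genes, 3 fell and none rose. The 3 chains of C1q, the recognition protein of the classical pathway, were higher at D10 without a call: C1qa was at 242, 248, 432 and 1328 CPM at D1 and 4668, 3993, 1482 and 1439.8 CPM at D10, with 2.45 ± 0.78 (SE, n = 4 and 4, adjusted p = 0.0565), C1qb had 1.77 (adjusted p = 0.115) and C1qc 2.14 (0.0871). Outside clusters 2, 3 and 10 all 3 were called, at 2.97 (adjusted p = 0.0118), 2.18 (adjusted p = 0.0451) and 2.66 (adjusted p = 0.0386). The 3 falls were of receptor genes, and 2 genes of the list did in the remaining macrophages. C5ar1, the receptor of the C5a fragment, was at 657, 574, 708 and 766 CPM at D1 and 71.9, 41.3, 50.4 and 31.1 CPM at D10 and changed by -3.80 ± 0.39 (SE, n = 4 and 4, adjusted p = 8.37e-05), and the chains Itgam and Itgb2 of complement receptor 3 changed by -2.20 and -1.28 (adjusted p = 0.0121 and 0.00865), while C3ar1 had -1.14 (0.144). C5ar1 kept its call in all 15 fits that each left out 1 library. Itgam and Itgb2 lost their calls each in 1 of those 15 fits, with an adjusted p of up to 0.0501 and 0.0513 (without D1_infiltrating 2). Trem2, a lipid receptor of macrophages, was at 266, 253, 335 and 253 CPM at D1 and 2069, 1679.9, 462 and 483 CPM at D10. It did not overlap between the days, but the change of 2.09 ± 0.72 (SE, n = 4 and 4, adjusted p = 0.0743) missed the threshold. Among receptors for antibodies, 3 of 5 fell (1 of 5 in the remaining macrophages), with changes of -1.77 for Fcgr1, -1.77 for Fcgr2b and -1.48 for Fcgr4 (adjusted p = 0.0115, 0.0223 and 0.00983). In the remaining macrophages Fcgr1 kept its call, and Fcgr2b and Fcgr4 lost theirs. Fcgr4 kept its call in all 15 fits that each left out 1 library. Fcgr1 and Fcgr2b lost their calls in 1 and 3 of those 15 fits, respectively, with an adjusted p of up to 0.0538 and 0.0915 (without D1_infiltrating 2).

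Genes best known from microglia were among the rises. Gpr34, a receptor for lysophosphatidylserine that serves as a microglia marker, was at 0.0661, 0, 4.24 and 12.2 CPM at D1 and 106, 141, 48.8 and 38.8 CPM at D10. The 4 D10 libraries lay above the 4 D1 libraries, and the change was 7.81 ± 1.54 (SE, n = 4 and 4, adjusted p = 0.00983). Tmem119, another such marker, was at 11.96, 11.4, 38.1 and 31.6 CPM at D1 and 112, 164, 29.3 and 32.2 CPM at D10. The mixed libraries overlapped between the days and the infiltrating ones did not, with a change of 2.28 ± 0.63 (SE, n = 4 and 4, adjusted p = 0.0333). Of 8 tested microglia markers, Gpr34, Tmem119, P2ry12 and Olfml3 rose and none fell, and the summed level of the list was 41.3 to 530 CPM at D1 and 384 to 1290 CPM at D10. The cells of cluster 9, all of the macrophage code, had 1008 to 2164 CPM of these markers at D10, and those of cluster 10 in the mixed libraries 21.5 and 23.8 CPM. Outside clusters 2, 3 and 10 Gpr34 had 8.62 (adjusted p = 0.0149) and Tmem119 2.70 (adjusted p = 0.00556). With only clusters 2 and 3 left out, the clusters mostly of microglia, Gpr34 had 8.20 (adjusted p = 0.0295), and Tmem119 and P2ry12 lost their calls, with 2.33 (adjusted p = 0.0807) and 1.91 (adjusted p = 0.0809). How far RNA of microglia contributed was not tested. Gpr34 kept its call in all 15 fits that each left out 1 library. Tmem119 and Olfml3 lost their calls in 5 and 11 of those 15 fits, respectively, with an adjusted p of up to 0.119 and 0.137 (without D1_infiltrating 2).

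Genes of the cytosolic ribosome, which make up a large share of the UMIs, were higher at D10. They were taken by symbol after their values were seen. Of 77 tested, 36 rose and none fell, with a median of 0.93 against 0.01 over all genes, and all 77 had a positive change, also under the other scaling and with DESeq2. Together they held 14.7, 9.86, 13.9 and 10.1% of the macrophage UMIs at D1 and 19.8, 21.6, 24.2 and 25.1% at D10, without overlap. Rps21, a protein of the small subunit, was at 1740.2, 887, 1492 and 1236 CPM at D1 and 4101, 4059, 4144 and 4534 CPM at D10 and rose by 1.74 ± 0.32 (SE, n = 4 and 4, adjusted p = 0.00383). Rpl39, of the large subunit, was at 1979, 1331, 1936 and 1481 CPM at D1 and 4255, 4114, 4356 and 4254 CPM at D10 and rose by 1.40 ± 0.28 (SE, n = 4 and 4, adjusted p = 0.00584). The 4 D10 values of each gene lay close together and above every D1 value. Processed copies of such genes can share reads with them, so single values are uncertain. Outside clusters 2, 3 and 10, 6 of 77 were called, with a median of 0.77, and leaving out 1 library gave from 6 calls (without D10_infiltrating 2) to 55 (without D3_mixed 3). The calls were 7 without D1_infiltrating 2, 7 without D10_mixed 1, 8 without D10_mixed 2, 10 without D1_mixed 3 and 14 without D1_mixed 1. The ribosomal share of UMIs was 26.1% to 28.6% in cluster 10, 23.5% to 27.8% in cluster 3 and 17.1% to 22.5% in cluster 9 at D10, and at D1 10.4% to 10.9% in cluster 9. Cluster 8 had 13.8% to 15.8% at D1 and 16% to 20.5% at D10, cluster 11 5.79% to 10.9% and 19.2% to 28.1%, cluster 12 15.1% to 19.2% and 20.8% to 22.3%, and cluster 13 15.9% to 21.5% and 20.1% to 22.6%. Within clusters 8, 9, 11 and 12 the D10 libraries thus lay above the D1 libraries, in part with 2 cells, while cluster 13 overlapped and cluster 3 was at 29.6% in 5 cells of D1_mixed 3, above its D10 range. DESeq2 gave 64 rises and edgeR with no expression filter 17. The infiltrating libraries alone gave 6 calls and the mixed libraries alone 69, and the part that the mix of clusters played was not tested.

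Among the rises by rule were also Igf1, Cpq and BC035044. Igf1, a growth factor, was at 7.53, 6.18, 0 and 0 CPM at D1 and 154, 107, 103 and 53.2 CPM at D10 and rose by 4.25 ± 1.08 (SE, n = 4 and 4, adjusted p = 0.028), without overlap. Its change in the remaining macrophages was 4.21 (adjusted p = 0.059). Cpq, a carboxypeptidase, was at 5.48, 1.498, 0 and 2.43 CPM at D1 and 77.8, 62.8, 37.4 and 31.1 CPM at D10 and rose by 4.29 ± 0.46 (SE, n = 4 and 4, adjusted p = 0.000101), with 4.03 (adjusted p = 0.000128) in the remaining macrophages. BC035044 was at 2.58, 0.562, 0 and 7.298 CPM at D1 and 12.4, 24.8, 106 and 95.4 CPM at D10, highest in the D10 mixed libraries, and had 4.28 ± 1.13 (SE, n = 4 and 4, adjusted p = 0.030) overall and 3.02 (adjusted p = 0.069) in the remaining macrophages. The receptors Tgfbr1 and Tgfbr2 of TGF-beta rose by 1.40 and 1.47 (adjusted p = 0.048 and 0.0496), and the other 9 tested genes of that pathway did not pass. Both lost their calls when clusters 2 and 3 were left out, with 1.58 (adjusted p = 0.0862) and 1.21 (adjusted p = 0.212), and both passed in the remaining macrophages, with 1.99 (adjusted p = 0.00453) and 1.62 (adjusted p = 0.0236). Axl, a receptor for dying cells, rose by 2.08 (adjusted p = 0.0339), and the integrin chain Itga4 by 2.41 (0.0245). Axl and Itga4 lost their calls when clusters 2 and 3 were left out and also in the remaining macrophages. Cpq kept its call in all 15 fits that each left out 1 library. Igf1, BC035044, Tgfbr1, Tgfbr2, Axl and Itga4 lost their calls in 5 to 11 of those 15 fits. The highest adjusted p was 0.205, for Tgfbr2 without D10_infiltrating 2, and the highest p of each gene came without D1_infiltrating 2 for Igf1, BC035044, Axl and Itga4, and without D10_infiltrating 2 for Tgfbr1 and Tgfbr2.

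Some division genes rose in the sums, and no rise among them was called outside clusters 2, 3 and 10. Of 18 tested genes of mitosis, 7 rose and none fell, with a median of 4.95, and of 18 of DNA replication, 7 rose and none fell, with a median of 2.53. Top2a, the topoisomerase that untangles chromosomes, was at 1.59, 0.936, 0 and 0 CPM at D1 and 11.6, 77.7, 391 and 222 CPM at D10. Mki67, a protein of the chromosome surface in dividing cells, was at 2.11, 3.25, 0 and 0 CPM at D1 and 9.42, 74.4, 190.4 and 153 CPM at D10. In both, each D10 library lay above every D1 library, D10_infiltrating 1 least and the mixed libraries most. The changes were 6.27 ± 1.77 (SE, n = 4 and 4, adjusted p = 0.0429) and 4.69 ± 1.17 (SE, n = 4 and 4, adjusted p = 0.0257). The kinase Cdk1 had 5.71 (adjusted p = 0.0294), the spindle protein Nusap1 6.92 (0.0284), the helicase Hells 4.85 (0.0106), the dUTPase Dut 4.84 (0.0171) and the replication helicase subunit Mcm5 4.25 (0.0474).

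Outside clusters 2, 3 and 10 none of 15 tested mitosis genes was called, and of 17 replication genes none rose and 1 fell. Top2a was then at 0.999, 0.937 and 0 CPM at D1 and at 1.597, 2.72, 4.24 and 3.101 CPM at D10, with a change of 1.21 (adjusted p = 0.459). Mki67 had 1.56 (adjusted p = 0.251), Cdk1 2.79 (adjusted p = 0.144), Hells 1.40 (adjusted p = 0.374), Dut 1.70 (adjusted p = 0.117) and Mcm5 0.59 (adjusted p = 0.756). In cluster 10, Top2a was at 659 and 979.8 CPM in the infiltrating and 734 and 395 CPM in the mixed libraries of D10, and in cluster 9 at 0 to 12.7 CPM. Nusap1, Top2a, Cdk1, Mki67, Hells, Dut and Mcm5 lost their calls in 1 to 11 of the 15 fits that each left out 1 library. The highest adjusted p was 0.181, for Mcm5 without D1_infiltrating 2, and each of them had its highest p without that library. Of the 15 mitosis genes in the promoter table, 13 hold CCAAT on either strand in the 250 bases before their start, against 37.5% of all 27025 genes, and 7 hold TTTGAA, the core of the cell cycle homology region, against 18.3%. The windows of Top2a (chr11:99024190-99024439, minus strand) and Cdk1 (chr10:69352913-69353162, minus strand) from RefSeq (GRCm38.p6) are printed to show how densely these letters stand, with CCAAT or its reverse complement ATTGG and TTTGAA or its reverse complement TTCAAA in capitals.
Top2a: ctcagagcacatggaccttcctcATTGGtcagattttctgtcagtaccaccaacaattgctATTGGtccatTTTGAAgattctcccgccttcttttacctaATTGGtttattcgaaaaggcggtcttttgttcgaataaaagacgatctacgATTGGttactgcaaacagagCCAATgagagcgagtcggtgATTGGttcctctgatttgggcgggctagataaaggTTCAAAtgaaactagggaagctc
Cdk1: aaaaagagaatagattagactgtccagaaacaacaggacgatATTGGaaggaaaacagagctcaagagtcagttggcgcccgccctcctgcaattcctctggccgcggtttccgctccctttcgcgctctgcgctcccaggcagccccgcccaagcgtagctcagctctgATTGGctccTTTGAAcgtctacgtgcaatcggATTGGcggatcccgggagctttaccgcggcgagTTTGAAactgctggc
Top2a has 6 CCAAT and 2 TTTGAA matches and Cdk1 has 3 and 2, whereas Nusap1 has none of either in its window.

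Genes of blood monocytes showed no common direction. Ly6c2, the surface marker of inflammatory monocytes, was at 394, 85.4, 8.47 and 0 CPM at D1 and 74.1, 122, 742 and 952 CPM at D10, and Plac8 at 1213, 269, 242 and 80.3 CPM at D1 and 357, 473, 2273 and 2209.7 CPM at D10. The difference between days was smaller than its standard error, with changes of 1.58 ± 1.98 (SE, n = 4 and 4, adjusted p = 0.642) and 1.54 ± 1.83 (SE, n = 4 and 4, adjusted p = 0.618). Within the D10 libraries, cluster 9 had 0 to 8.62 CPM of Ly6c2, cluster 13 had 482 to 1279 CPM, and cluster 10 of the mixed libraries 1192 and 1326 CPM. Of 12 tested genes of monocyte identity, Itga4 rose, and Thbs1 and Fn1 fell. Itga4 and Fn1 lost their calls in the remaining macrophages. Spp1, a secreted phosphoprotein, was at 20391, 33201, 25369 and 9317 CPM at D1 and 9030.2, 3999.6, 2603 and 1999 CPM at D10, without overlap, but the change of -2.55 ± 0.91 (SE, n = 4 and 4, adjusted p = 0.0824) missed the threshold. Gpnmb, a lysosomal glycoprotein, had 1.74 ± 0.84 (SE, n = 4 and 4, adjusted p = 0.186). Cd74, the invariant chain of MHC class II, had 0.36 ± 0.86 (SE, n = 4 and 4, adjusted p = 0.823), and among 11 tested class II presentation genes Cd86 alone was called, at -2.05 (adjusted p = 0.0453, lost in 10 of the 15 fits that left out 1 library, up to 0.126 without D1_infiltrating 2). The metal-binding Mt1 had -2.68 ± 0.99 (SE, n = 4 and 4, adjusted p = 0.0947), and the immediate early gene Fos -1.60 ± 0.78 (SE, n = 4 and 4, adjusted p = 0.192).

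The calls of the other lists are given here with their log2 change and adjusted p values of 0.00153 to 0.0477. Over all genes tested 6.73% rose and 6.65% fell, and in the remaining macrophages 2.66% rose and 4.34% fell. The single calls of the NF-kB and toll-like receptor lists are near these shares. Of 16 tested immediate early genes, which answer a stimulus within minutes, Ier3 (-4.19), Dusp1 (-4.49), Jun (-2.41), Klf6 (-2.08) and Atf3 (-1.59) fell. Of 17 interferon-stimulated genes, Rsad2 (-3.83), Isg15 (-2.38) and Usp18 (-1.79) fell. Among 16 lineage factors, Irf8 (0.83) and Batf3 (1.85) rose, and those that fell included Id2 (-3.25), Nr1h3 and Cebpb (-2.10). Of 30 lysosomal genes, Man2b1 rose (0.98), and Ctsk (-4.39), Ctsl (-2.91), Atp6v0c (-1.15) and Atp6v1b2 (-0.88) fell. Of 16 scavenger and efferocytosis receptors, Axl rose, and Msr1, Cd300lf (-2.80), Cd36 (-2.15) and Stab1 (-1.39) fell. Of 12 adhesion genes, Itga5 (-2.34), Itgam, Itgb2 and Cd44 (-2.07) fell, and Itga4 rose. Of 10 growth factors, Vegfa, Tgfbi (-2.73) and Inhba fell, Inhba with 1 count left at D10, and Igf1 rose. Of 8 S100 genes, S100a6 (-1.94), S100a11 (-1.96) and S100a9 fell, S100a9 with 2 counts left at D10. Of 14 disease-associated genes, Axl and Igf1 rose and Lgals3 fell (-2.04). Nfkbia (-1.90) was the 1 call among 13 NF-kB genes, Cd14 (-3.75) the 1 call among 11 genes of toll-like receptors, and no metallothionein gene passed edgeR's test (2 of 3 at an unadjusted p under 0.05, 1 by DESeq2). In the remaining macrophages the falls were 3 of 18 immediate early genes, 3 of 18 lineage factors, 3 of 30 lysosomal genes, 3 of 16 scavenger and efferocytosis receptors, 2 of 12 adhesion genes, 2 of 14 growth factors, 2 of 8 S100 genes and 2 of 14 disease-associated genes. No interferon-stimulated gene and no gene of toll-like receptors was called there, and the rises of Axl, Igf1 and Itga4 lost their calls. Ier3, Jun, Id2, Cd300lf, Cd36, Itga5, Lgals3 and Nfkbia kept their calls in all 15 fits that each left out 1 library. Dusp1, Rsad2, Isg15, Usp18, Nr1h3, Cebpb, Ctsk, Ctsl, Atp6v0c, Inhba, S100a6, S100a11, S100a9 and Cd14 lost their calls in 1 to 11 of those 15 fits. The highest adjusted p was 0.202, for S100a9 without D1_infiltrating 2, and the highest p of each gene came without D10_mixed 1 for Dusp1 and Inhba, D10_mixed 2 for Rsad2, Ctsl and Cd14, D1_infiltrating 1 for Isg15 and Usp18, and without D1_infiltrating 2 for Nr1h3, Cebpb, Ctsk, Atp6v0c, S100a6, S100a11 and S100a9.

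Markers of the macrophages and of other cells were counted in the same sums. Of 9 tested macrophage markers, 6 fell, among them Msr1, Mrc1 and Lgals3, and the list summed to 10500 to 16400 CPM at D1 and 2390 to 5230 CPM at D10, so the labelled cell type had less of its own list at D10, while Ms4a7 (2.13, adjusted p = 0.0972) and Adgre1 (1.08, 0.133) were not called. None of 8 monocyte markers was called by edgeR (2 at an unadjusted p under 0.05), and their sum was 2580 to 6150 CPM at D1 and 760 to 6030 CPM at D10. Of 3 tested neutrophil markers, Csf3r rose (1.29) and S100a9 fell. The B cell gene Cd79b rose (4.17, adjusted p = 0.00111), as did Nkg7 of the T and NK list, from 1 count to 60, and Flt1 of the endothelial list (2.19, 0.0176). The T and NK list summed to 0 to 49.9 CPM at D10, so Nkg7 overlapped between the days. Csf3r and Cd79b kept their calls in all 15 fits that each left out 1 library. Nkg7 and Flt1 lost their calls in 5 and 3 of those 15 fits, respectively, with an adjusted p of up to 0.197 (without D1_infiltrating 2) and 0.0593 (without D10_infiltrating 2). No tested marker of dendritic cells (3), oligodendrocytes (5), astrocytes (2) or red cells (1) was called (0, 1, 1 and 0 at an unadjusted p under 0.05), and no marker of neurons or fibroblasts was abundant enough to test. The 5 tested oligodendrocyte markers summed with their list to 38.1 to 87.5 CPM at D1 and 92.7 to 137 CPM at D10. Macrophages of the 8 libraries shared their barcode with a macrophage of another of the 8 in 4 cases and with any cell of the 25 libraries in 35.

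Whether the change from D1 to D10 differed between the sorts was tested with an interaction term, positive where the infiltrating change was the higher. It was called for 75 of 7544 genes (0.994%), 38 positive and 37 negative. Ifitm1, an interferon-induced membrane protein, was at 425, 213, 33.9 and 19.5 CPM at D1 and 3.22, 3.31, 145 and 134 CPM at D10. It was lower at D10 in the infiltrating and higher in the mixed libraries, a difference of -9.37 ± 0.53 (SE, n = 2 per sort and day, adjusted p = 3.52e-05). Fcrls, a microglia marker, was at 7.796, 6.68, 59.3 and 146 CPM at D1 and 612, 689, 181 and 162 CPM at D10, with 5.72 ± 0.53 (SE, n = 2 per sort and day, adjusted p = 0.00246). It was lowest in the D1 infiltrating libraries and highest in the D10 infiltrating ones. Uck2, a uridine-cytidine kinase, had -4.66 ± 0.56 (SE, n = 2 per sort and day, adjusted p = 0.0132) and Camk2n1, an inhibitor of CaM kinase II, 6.03 ± 0.76 (SE, n = 2 per sort and day, adjusted p = 0.0132). Without cluster 10, 5 of 6093 genes (0.0821%) were called, and 4 of the 65 earlier calls still tested remained. Fcrls and Camk2n1 kept their call there (4.66, adjusted p = 0.0117; 5.03, 0.0344), and Ifitm1 (-5.97, 0.0696) and Uck2 (-0.99, 0.868) lost theirs. Leaving out 1 of the 8 libraries gave 13 (without D10_mixed 2) to 298 calls (without D1_infiltrating 2).

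The macrophages of the other days place both ends in a sequence, as levels without a test. Ccl2 went through 4504, 1820.4 and 3389.6 CPM on day 2 and 2105 and 361 CPM on day 3 to 42.7 and 8.96 CPM on day 21. It was thus lower in each day 21 library than in any library of days 1 to 3. Apoe was at 5621, 9996 and 9347 CPM on day 2, 7215 and 29840.3 CPM on day 3 and 39722 and 97368 CPM on day 21. The higher day 3 value belongs to D3_mixed 3, 88.6% of whose macrophages lay in cluster 9, against 3.76% in D3_infiltrating 1. Hmox1 was still at 1391 and 1663 CPM on day 3 and at 73.6 and 185 CPM on day 21. Cxcl2 and Slc7a11 did not stay low in both day 21 libraries. They were at 4.41 and 5.88 CPM in D21_infiltrating 1 but at 2879 and 224 CPM in D21_mixed 1, with 78 macrophages, where Cxcl2 was above 3 of the 4 D1 libraries. Of those 78 macrophages, 71 (91%) lay in cluster 3, most of whose cells carry the microglia code, and 3 in cluster 9. Which of these cells held the Cxcl2 and Slc7a11 counts was not tested. Top2a was at 0 in D21_mixed 1, which held no cell of cluster 10, and at 331 CPM in D21_infiltrating 1, where 9 of 89 macrophages (10.1%) were of cluster 10.

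**Figure D5:**
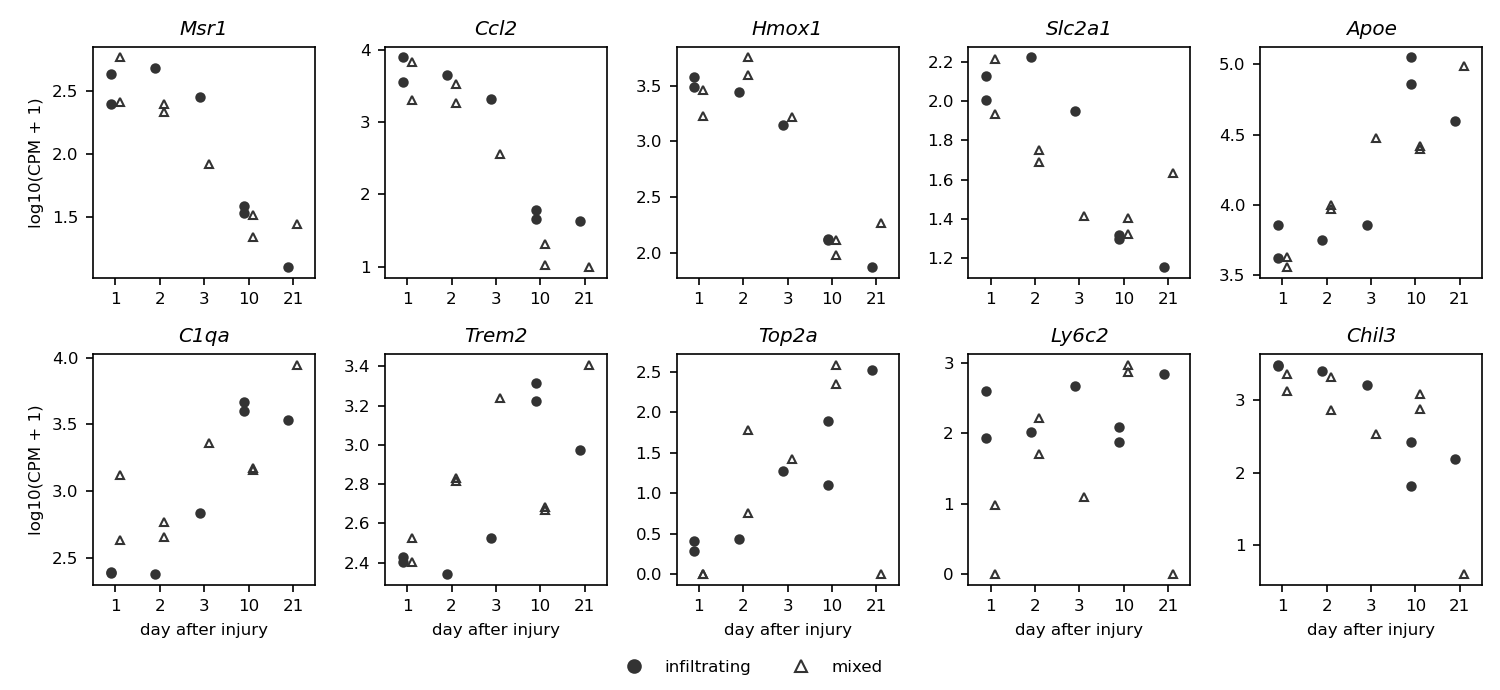
Level of 10 genes in the macrophages of each infiltrating (filled circles) or mixed (open triangles) library, as log10 of CPM plus 1, by day after injury, with the days evenly spaced. Ccl2 and Hmox1 are high on days 1 to 3 and low on days 10 and 21, while Apoe rises from 3619.7 to 7221 CPM on day 1 to 25017 to 111997 CPM on day 10.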

How the data were processed

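For 25 libraries of single cells the authors deposited matrices of unnormalised UMI counts, and a table with a cluster and a cell type code, without names, for every cell. The percent of mitochondrial counts per cell was also deposited by the authors and was not used in a test. Its median in the macrophages, in the order of libraries used above, was 1.02, 1.43, 0.162 and 0.702 at D1. At D10 it was 1.55, 1.61, 1.45 and 1.6, so it was higher at D10 without overlap. Cell Ranger 3.1.0 and GRCm38/mm10 are listed in the submitters' processing notes. Members, gene lists and tests were chosen with earlier results of these data known.

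Counts were summed over the macrophages (code 2) of each infiltrating or mixed library with at least 20 such cells. The 15 sums held 235999 to 22068469 UMIs, those of D1 and D10 235999 to 16019236, and the smallest sums limit the precision of weakly expressed genes. No cell was filtered, no doublets were called and free RNA was not subtracted. edgeR 4.0.16 in R 4.3.3 was run with TMM scaling, filterByExpr and the robust quasi-likelihood test, with time point and sex as terms over the 15 sums and Benjamini-Hochberg adjustment over all genes tested, 2-sided, at 0.05. D2_infiltrating 1 is labelled female but shares a deposited code with the male libraries, and the label was used for the sex term. The difference between sorts was an interaction in the 8 sums of D1 and D10. Levels are CPM of the sum, and standard errors are the log2 change divided by the square root of F.

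Genes were named by rule: the 12 largest rises and 12 largest falls among called genes whose ranges did not overlap and whose higher mean was at least 50 CPM (no histone cluster genes, Gm or Rik symbols or sex-specific genes), up to 3 called genes with the largest changes per list, a fixed set, and for the difference between sorts the 5 smallest p-values. Other named genes complete lists or counts and were chosen after their values were seen. Some genes that the rule names are not reported here, while counts over lists and all genes include them. Intervals of low counts cover counting error only.

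In data simulated with the library sizes and groups of this design (8354 genes) 6 of 67 changes of log2 size 1, 51 of 66 of size 2 and 63 of 63 of size 4 were recovered, with 5 false calls among 125. The simulation gave every gene the same spread and held no pool effect and no mix of clusters. Its rates therefore need not hold for the real sums. Coordinates are from GENCODE M21. Alternatives were DESeq2 1.42.0 and other scalings, filters, terms, depths, cell subsets and left-out libraries. The library with conflicting labels and the resident and control libraries were left out.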

Additional observations from a re-analysis of the deposited data

Results flagged for a closer look

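In groups of 4 libraries, a library stood apart where its gap to the nearest other, divided by the range, exceeded Dixon's critical value for 4 samples, which chance gives in about 1 group of 20 for normally spread values. The genes with the largest changes and the fixed set were examined at both days, so chance alone would give some flags. At D1 the libraries that stood apart were D1_infiltrating 2 for Ccl24 (0.947, 326 CPM against 21.9 to 38.1), D1_infiltrating 1 for Plac8 (0.833, 1213 CPM against 80.3 to 269) and D1_mixed 1 for Trem2 (0.843, 335 CPM against 253 to 266). D1_mixed 3 stood apart for Il1rn (0.838), Il1b (0.930) and Mt1 (0.920), with 146 CPM against 301 to 331, 114 CPM against 243 to 252 and 6023 CPM against 352 to 807. At D10 the ratio was 1 where 1 library held all the counts, D10_infiltrating 1 for Ccl7 (8.18 CPM), D10_mixed 2 for Ccl24 (1.11 CPM) and D10_mixed 1 for Sdc1 (1.63 CPM). A ratio of 1 is fixed there by the zeros of the other libraries, and the rate of 1 in 20 does not apply to it. The ratio was 0.918 for Hmox1, with D10_mixed 2 low (94.3 CPM against 129 to 132), and 0.899 for Cd74, with D10_infiltrating 2 high (4226 CPM against 1266 to 1564).

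The change from D1 to D10 differed between the sorts for 75 genes, by the interaction term. Among those with the smallest p were Ifitm1 (-9.37), Fcrls (5.72), Uck2 (-4.66) and Camk2n1 (6.03). In a library that entered no comparison, D10_resident 1, 134 of 775 cells (17.3%) carried the macrophage code, 109 of them in cluster 9, and none did in the control libraries.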

How the results depend on the processing

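Against 1147 calls, DESeq2 gave 1783, sums thinned to equal depth 630, the macrophages without clusters 2 and 3, added after seeing the data, 742, and cluster 9 alone 7, with 1 library at D1. Leaving out 1 library gave 329 (without D1_infiltrating 2) to 1570 (without D3_infiltrating 1). The infiltrating libraries alone gave 1710 and the mixed ones alone 1200. Other scaling, filter, terms, spread estimate and a minimum of 50 cells stayed within 1.5 times. The difference between sorts, 75 calls, was 637 with no expression filter, 241 with DESeq2, 135 with no sex term and 5 without cluster 10 (clusters 6, 7 and 10 of the plan, of which clusters 6 and 7 hold no macrophages), and 13 to 298 when 1 library was left out. The cause was not tested. In cluster 9 alone Cxcl10 (0.41), Fcgr2b (0.0255) and Cd86 (0.94) reversed, and in the mixed libraries alone Tmem119 (-0.0014). Sequencing pool as a term was not run, since no pool holds both days. No paired analysis was possible because the infiltrating libraries carry no replicate numbers and the mixed libraries of D1 and D10 share fewer than 2. With few macrophages in the mixed libraries, genes of few counts rest on single libraries.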
